A study of Mus musculus with 32 samples.

Results

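Transcript levels in mouse embryonic stem cells were compared between 12 h of RAD21 degradation and 0 h. The cells were of the E14 line with the genotype RAD21 AID, in which RAD21 carries an auxin-inducible degron, a tag that lets an auxin send the tagged protein for destruction. By the treatment protocol, treated cells received 1 uM of the auxin analogue 5-Ph-IAA for 12 h or 24 h. The treatment label of the RAD21 AID samples reads IAA instead, and the protocol was followed here. The 0 h cells carried the same degron and received no auxin. All groups were grown without serum on gelatin with leukemia inhibitory factor, the MEK inhibitor PD0325901 and the GSK3 inhibitor CHIR99021, which hold stem cells in the naive state. Each time point had 2 libraries of polyA RNA, and the series holds 32 libraries in all. The labels give neither the clone nor whether replicates were separate cultures, so p-values measure only the spread between these libraries, which may be technical. Of 14277 genes listed in the table, the 13738 with a mean normalised count of at least 10 over its 6 libraries were tested.

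RAD21 is the subunit that closes the cohesin ring by joining the SMC1A and SMC3 proteins. Cohesin extrudes chromatin loops, which often stop at sites bound by CTCF, and holds sister chromatids together until mitosis. In embryonic stem cells it is known for bringing enhancers near their promoters and for its part in DNA repair and chromosome segregation.

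Library totals lay between 17700427 and 18023866 normalised counts, and between 18 and 33 genes were listed at 0 in a library. On the log2 scale and across genes, which are not independent, replicates correlated with r from 0.985 to 0.986, and 0 h with 12 h libraries with r from 0.977 to 0.979. All 10 stem cell markers were in the table, and their summed level was 108860 to 110501 at 0 h and 105559 to 105626 at 12 h. Summed levels at 0 h and 12 h were 193 to 226 for fibroblast markers (4 of 13 in the table), 98.5 to 151 for endoderm markers (4 of 7), 1036 to 1194 for neuron markers (3 of 6) and 65.3 to 85.4 for blood markers (3 of 6). Endoderm markers were higher in both 12 h libraries (147 and 151) than in both 0 h libraries (98.5 and 102), and no single marker outside the stem cell list passed the test. The targeted gene Rad21 had 4417 and 4259 normalised counts at 0 h and 4076 and 4194 at 12 h, a difference that was not called (log2 difference -0.07, limma adjusted p 0.265). The degron acts on the protein, so this transcript does not check the label.

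After 12 h the transcriptome moved in many small steps, in both directions. limma called 1787 genes (13% of those tested) at a Benjamini-Hochberg adjusted p under 0.05, of which 915 rose (6.66%) and 872 fell (6.35%). The median size of a called change was 0.32 on the log2 scale for rises and 0.43 for falls, and 732 of the rises and 582 of the falls were under 1.5-fold. A change of at least 2-fold was called for 143 genes (1.04%), 58 of them higher (0.422%) and 85 lower (0.619%). Calls were more frequent at high counts. In the highest quintile of mean count 17.4% of genes were called higher and 11.8% lower, against 0.946% and 1.49% in the lowest. Libraries of the groups did not overlap for 30.1% of tested genes with higher and 29.8% with lower values at 12 h, so non-overlap was common with 2 libraries a group. The number of calls depended on how the spread was modelled: 158 genes were called when the spread was not tied to a gene's mean level, and 555 to 622 when a 0 h or 12 h library was left out. In bulk RNA a smaller share of cells expressing a gene and less RNA per cell cannot be told apart.

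**Figure D1:**
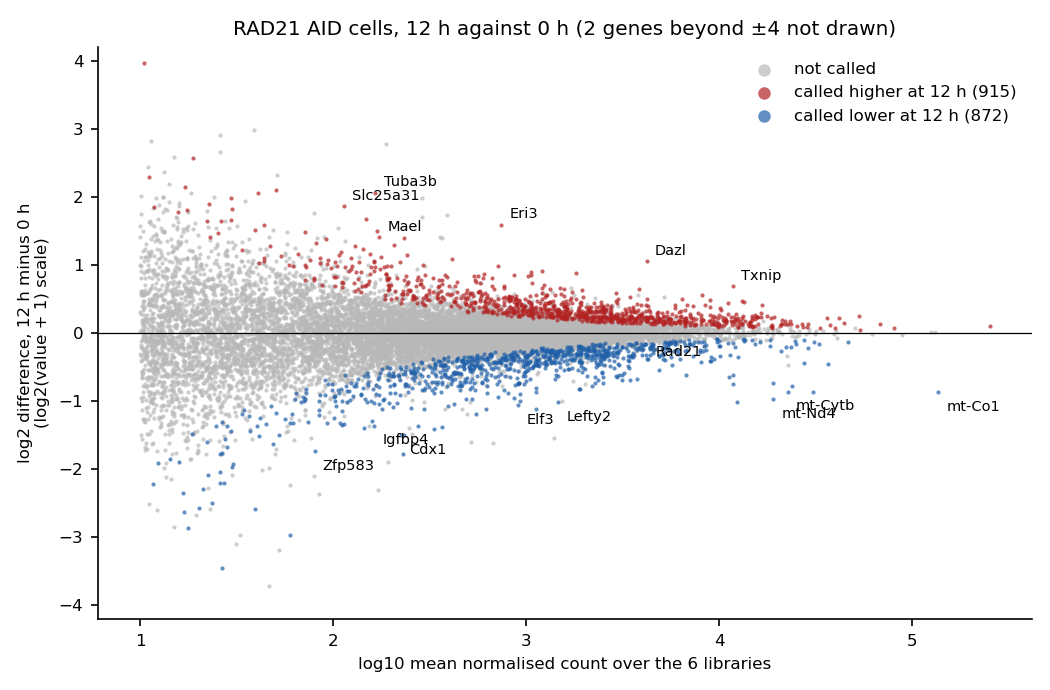
Log2 difference between 12 h and 0 h (vertical axis, log2(value + 1) scale) against log10 mean normalised count over the 6 libraries (horizontal axis), 1 point per tested gene. Red points are the 915 genes called higher and blue points the 872 called lower. Most called genes lie within 1 log2 unit of 0, with the germline genes Tuba3b, Slc25a31, Mael and Dazl above and transcripts of the mitochondrial genome below at the right.

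Germline genes headed the largest rises of well-expressed genes. Tuba3b (chromosome 6, 145615757 to 145621479, plus strand, GRCm38), an alpha tubulin of the testis, had 75.7 and 86.6 normalised counts at 0 h, 327 and 355 at 12 h and 66.2 and 81.2 at 24 h. Both 12 h libraries stood well above the other 4 (log2 difference 2.06, SE 0.17, limma adjusted p 0.00129). Slc25a31 (chromosome 3, 40708855 to 40726096, plus strand), the ADP/ATP carrier of male germ cells, had 55.2 and 61.8 at 0 h, 225 and 206 at 12 h and 66.2 and 65.3 at 24 h (log2 difference 1.86, SE 0.17, limma adjusted p 0.00177). It too was high at 12 h alone. Mael, a piRNA pathway gene that restrains transposons in germ cells, went from 118 and 92.3 to 277 and 282, and stood at 135 in both 24 h libraries (log2 difference 1.41, SE 0.16, limma adjusted p 0.00377). Tex19.2, expressed in germ cells and placenta and not a member of the germline list, went from 115 and 139 to 303 and 321 (log2 difference 1.29, SE 0.14, limma adjusted p 0.00341). Dazl (chromosome 17, 50279395 to 50293636, minus strand), an RNA-binding protein needed for germ cell development, was among the 4 rises of highest count, from 3231 and 2995 to 6457 and 6499. At 24 h it was at 3127 and 2938, the level of 0 h (12 h against 0 h log2 difference 1.06, SE 0.05, limma adjusted p 0.00018). Tuba3b shares 11.8% of its 100-base stretches with other genes, mostly with its close relative Tuba3a (10.4%), so reads could have been split between them.

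Of 39 tested germline genes, 11 rose (28.2%, against 6.66% of all genes) and 0 fell (6.35% of all genes). As with all lists here, members were chosen with earlier results of these data known, so the shares describe the list and test nothing. At an unadjusted limma p under 0.05, 19 were higher and 2 lower. Their median log2 difference was 0.26, against 0.00 over all genes tested, and 28 of 39 had values above 0. The 11 were Tuba3b, Slc25a31, Mael, Dazl, Tuba3a, Asz1, Ddx4, Piwil2, Mov10l1, Fkbp6 and Tex11 rose. Asz1, Piwil2, Mov10l1, Mael and Fkbp6 belong to the piRNA machinery, and Ddx4 is the germ cell helicase VASA. Piwil2 went from 500 and 447 to 790 and 868 normalised counts, Mov10l1 from 416 and 400 to 754 and 651, and Ddx4 from 192 and 243 to 375 and 410. In each of them the 12 h libraries lay above the 0 h libraries. Tex11 acts in meiotic recombination. Rec8, the meiotic counterpart of RAD21, had 215 and 137 at 0 h and 104 and 96.1 at 12 h (limma adjusted p 0.0689), and the log2 differences of the meiotic chromosome axis genes Sycp1, Sycp3, Hormad1 and Stag3 lay between -0.09 and 0.43 without a call. Tdrd9 and Tdrd1, with log2 differences of 1.14 and 0.80, were not called either. Further rises outside the list, Rbm44 and Boll, both RNA-binding proteins of germ cells, were picked after their values were seen (log2 differences 1.08 and 1.59). The count of rises in the list was 6 to 7 when a 0 h or 12 h library was left out, 4 without the mean trend, and 15 after a correction for transcript GC content that was added after seeing the data.

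**Figure D2:**
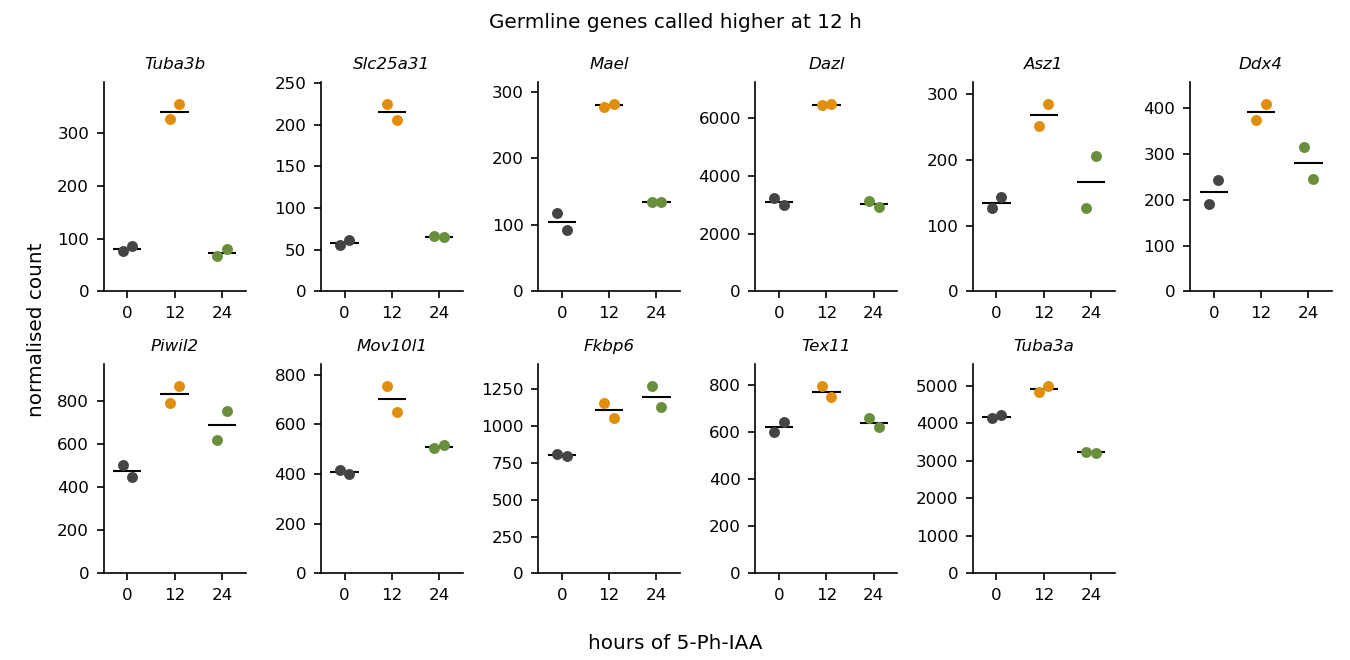
Normalised counts (vertical axes, each from 0) in each library at 0, 12 and 24 h of 5-Ph-IAA (horizontal axes) for the 11 germline genes called higher at 12 h. Points are libraries and bars are means of 2. In Tuba3b, Slc25a31, Mael and Dazl both 12 h libraries lie above all 4 others, while Fkbp6 is as high at 24 h as at 12 h.

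At 24 h against 0 h, 2 of the 39 germline genes were called higher (6.54% of all genes) and 3 lower (7.16% of all genes). Between 12 h and 24 h, 10 fell (8.26% of all genes) and 3 rose (7.67% of all genes). The 12 h libraries are shared by the rise and by the later fall, so these counts are not independent of each other. Between these times Dazl fell by 1.10 on the log2 scale (limma adjusted p 9.09e-05) and Tuba3b fell by 2.20 (limma adjusted p 0.000571). In CTCF AID cells after 12 h of 500 uM IAA, a separately normalised table with no shared libraries, 1 of 35 germline genes was called higher and 8 lower, beside 9.39% higher and 8.40% lower over all genes there. Tuba3b fell there (log2 difference -1.15, limma adjusted p 0.0276), and Dazl had a log2 difference of -0.20 that was not called (limma adjusted p 0.0636).

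The promoters of 4 germline genes that rose are shown because each carries a sequence element known from this gene class. Many germline genes are held silent in embryonic stem cells by a repressor complex that holds MGA, MAX, L3MBTL2 and E2F6, in which MGA with MAX binds the E-box CACGTG and E2F6 binds E2F elements such as GGCGGGA, read on either strand. Windows of 250 bases before the RefSeq start (GRCm38.p6) were found for 35 of the 39 germline genes, and both strands were searched. The capitals mark an E-box or an E2F element, which did not overlap in these windows. They come from chr3:40708621-40708870 (plus strand), chr1:166238745-166238994 (minus strand), chr13:112652311-112652560 (minus strand) and chr6:145615713-145615962 (plus strand), in the order shown.
Slc25a31: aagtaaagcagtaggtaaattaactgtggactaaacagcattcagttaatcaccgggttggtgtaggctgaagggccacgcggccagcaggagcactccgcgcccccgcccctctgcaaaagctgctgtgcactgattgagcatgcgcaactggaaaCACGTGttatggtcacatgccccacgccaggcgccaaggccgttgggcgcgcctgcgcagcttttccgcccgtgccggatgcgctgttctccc
Mael: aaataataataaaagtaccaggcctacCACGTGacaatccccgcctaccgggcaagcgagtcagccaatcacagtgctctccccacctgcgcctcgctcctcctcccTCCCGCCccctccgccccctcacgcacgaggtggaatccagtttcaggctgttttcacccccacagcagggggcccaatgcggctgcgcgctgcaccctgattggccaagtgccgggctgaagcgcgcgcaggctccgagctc
Ddx4: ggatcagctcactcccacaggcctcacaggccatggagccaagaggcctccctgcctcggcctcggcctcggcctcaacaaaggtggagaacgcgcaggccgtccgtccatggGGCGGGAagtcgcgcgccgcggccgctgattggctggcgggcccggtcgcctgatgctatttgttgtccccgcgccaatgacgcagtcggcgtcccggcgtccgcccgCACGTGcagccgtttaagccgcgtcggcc
Tuba3b: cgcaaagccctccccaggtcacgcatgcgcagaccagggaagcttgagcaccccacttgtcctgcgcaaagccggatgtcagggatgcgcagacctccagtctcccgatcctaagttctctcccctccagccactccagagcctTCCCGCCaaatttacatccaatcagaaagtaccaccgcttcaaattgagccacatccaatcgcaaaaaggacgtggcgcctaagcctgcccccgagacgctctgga
The E-box begins 93 bases before the start in Slc25a31, 223 in Mael and 29 in Ddx4. The E2F element begins 143 bases before the start in Mael, 137 in Ddx4 and 106 in Tuba3b. The RefSeq start of Tuba3b lies inside the gene as bounded above by GENCODE, so most of its window, the element included, falls within those bounds. CACGTG was in 14 of 35 germline windows (40%) and in 10.1% of 10338 tested genes with a window. Among germline genes it was in 5 of 9 that rose (Ddx4, Fkbp6, Mael, Mov10l1 and Slc25a31) and in 9 of 26 that were not called higher. GGCGGGA was in 7 of 35 (20%), against 21.1% of tested genes, in 4 of the 9 that rose and in 3 of 26 that were not called higher. Among the 9, Dazl and Asz1 held neither. These are matches of letters, not binding sites. Of the complex itself, Mga, L3mbtl2 and E2f6 had log2 differences of 0.02, -0.02 and 0.14 and were not called. RNA levels do not show whether the complex was bound, and its part in the rises was not tested.

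Most transcripts of the mitochondrial genome fell. They encode subunits of the respiratory chain and the mitochondrial ribosomal RNAs. Of 15 tested, 12 fell (80.0%, against 6.35% of all genes), 0 rose (6.66% of all genes; also 0 at an unadjusted limma p under 0.05), and all 15 had values below 0, with a median log2 difference of -0.76. mt-Co1, a subunit of cytochrome c oxidase, had 168902 and 171812 normalised counts at 0 h, 91670 and 95653 at 12 h and 146625 and 144936 at 24 h (12 h against 0 h log2 difference -0.86, SE 0.02, limma adjusted p 6.61e-06). mt-Cytb, of complex III, went from 28659 and 28211 to 15436 and 15860 and stood at 23526 and 23878 at 24 h (log2 difference -0.86, SE 0.02, limma adjusted p 6.61e-06). The 24 h libraries of both lay between the other groups. mt-Nd1 and mt-Nd4, of complex I, fell by 0.78 and 0.97 on the log2 scale, and the ribosomal RNAs mt-Rnr1 and mt-Rnr2 by 0.36 and 0.62. The 15 transcripts held 2.02% and 2.00% of all normalised counts at 0 h, 1.15% and 1.15% at 12 h, and 1.70% and 1.75% at 24 h. Transcripts from nuclear DNA copies can share these reads: 60.8% of the 100-base stretches of mt-Nd4 and 30.8% of those of mt-Co1 occur in other genes, and 0% of those of mt-Cytb and mt-Nd1. Of 82 nuclear genes of the respiratory chain 3 were called higher (3.66%, against 6.66% of all genes) and 4 lower (4.88%, against 6.35%). In CTCF AID cells 1 of the 15 was called lower and 0 higher, with a median log2 difference of 0.05. Over all genes there 8.40% were called lower and 9.39% higher. The 12 calls became 10 to 11 without a 0 h or 12 h library, 7 without the mean trend and 9 after the GC correction.

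Zfp genes, named for their zinc fingers and in large part KRAB repressors of transposons, were called lower more than higher. Of 364 tested, 66 fell (18.1%, against 6.35% of all genes) and 5 rose (1.37%, against 6.66%), with a median log2 difference of -0.20 and 259 values below 0. Zfp583 (chromosome 7, 6315660 to 6331285, minus strand) had 122 and 154 normalised counts at 0 h, 37.4 and 43.7 at 12 h and 59.2 and 63.1 at 24 h (log2 difference -1.74, SE 0.22, limma adjusted p 0.0048). No other gene named by the size of its fall had a larger log2 difference. Zfp799 went from 515 and 438 to 199 and 166, with 24 h libraries at 312 and 553. It shares 3.33% of its 100-base stretches with Gm26693, which overlaps it on the opposite strand, and strand use in counting is not given. The 5 that rose were Zfp777, Zfp217, Zfp512, Zfp207 and Zfp106, with rises of 0.16 to 0.55 on the log2 scale. At 24 h against 0 h 25 of the 364 Zfp genes were called lower and 6 higher, beside 7.16% lower and 6.54% higher over all genes, so the share called lower was near that of all genes. From 12 h to 24 h 41 rose and 9 fell, beside 7.67% and 8.26% over all genes. In CTCF AID cells 13 of 361 were called lower and 29 higher, beside 8.40% and 9.39%.

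The falls were dense in a gene cluster on chromosome 4, between 145510759 and 147848366, a stretch of 2.34 Mb that was picked after the values were seen. There 14 of 18 Zfp genes fell (77.8%), with a median log2 difference of -0.65. Of 19 other tested genes 8 fell as well (42.1%), among them Znf41-ps, Gm13212 and the pseudogene Gm13034. Znf41-ps shares 77.3% of its 100-base stretches with other genes (70.0% with Zfp991), Gm13212 27.4% (23.9% with Zfp984) and Gm13034 50.2%. Their falls may therefore rest in part on shared reads. Gm16211, which also fell, shares 3.02%. Of the 32 tested genes within 2 Mb after it 0 fell and 3 rose, of 13 within 2 Mb before it 1 fell, and over the rest of the chromosome 5.23% of 861 fell. Zfp990 had 3767 and 3818 normalised counts at 0 h, 2519 and 2434 at 12 h and 3200 and 3047 at 24 h (log2 difference -0.61, SE 0.04, limma adjusted p 0.000707). Zfp985 went from 1045 and 1149 to 662 and 649, and Zfp982 from 348 and 392 to 212 and 208. These 3 genes share only 3.60%, 1.73% and 3.06% of their 100-base stretches with other genes. For the 18 Zfp genes the shared part ran from 0% to 71.9% with a median of 41.4%, so the values of most are uncertain one by one. Between 12 h and 24 h 13 of the 18 rose, beside 7.67% of all genes. In CTCF AID cells 5 were called higher and 0 lower, beside 9.39% and 8.40% of all genes. Other clusters held fewer falls, 4 of 9 and 4 of 10 in clusters of chromosome 7, 5 of 13 and 6 of 23 on chromosome 17, and 0 of 8 on chromosome 2.

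Transcript GC content moved with these falls. Among genes in the lowest quintile of GC (up to 45.19%), 54 of 173 Zfp genes fell (31.2%), and 279 of 2571 other genes fell (10.9%). Above that limit 12 of 191 Zfp genes (6.28%) and 4.88% of other genes fell. The part of GC content in the result was not tested. The GC correction was fitted over all tested genes, the Zfp genes included, so it cannot tell GC content from Zfp membership. Added after seeing the data, it left 44 Zfp genes called lower. Without a 0 h or 12 h library 26 to 30 were called, and 19 without the mean trend.

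**Figure D3:**
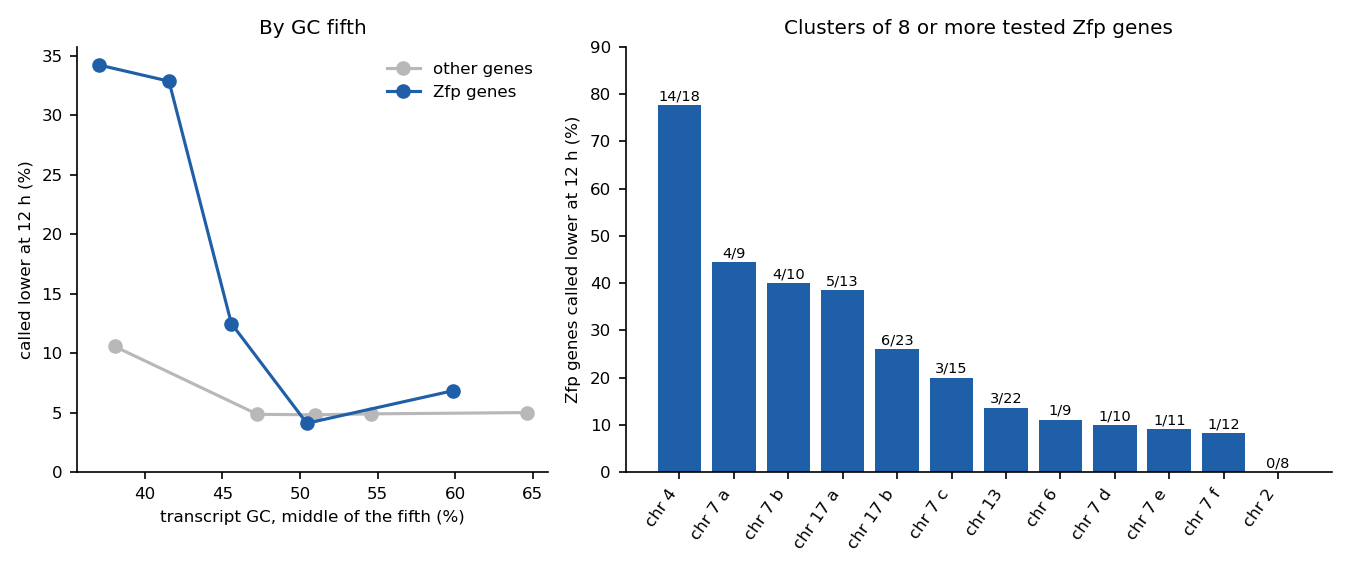
Left, percent of genes called lower at 12 h (vertical axis) by quintile of transcript GC (horizontal axis, middle of the quintile) for Zfp genes and other genes, with quintiles cut separately in each set. Right, percent of Zfp genes called lower in each cluster of 8 or more tested Zfp genes, with fallen over tested genes on each bar and letters telling apart clusters of a chromosome. Falls were at 34.2% and 32.9% in the lowest GC quintiles of Zfp genes, and the chromosome 4 cluster stood highest with 14 of 18.

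Targets of p53, the transcription factor of the DNA damage response, were called higher more than lower. Of 32 tested, 14 rose (43.8%, against 6.66% of all genes), 2 fell (6.25%, against 6.35%) and 16 were not called, with a median log2 difference of 0.21. A mean of at least 100 was reached by 31 of them. In the highest quintile of mean count 17.4% of all genes were called higher and 11.8% lower. Plk2, a kinase induced under stress, went from 590 and 605 normalised counts to 1090 and 1070, and stood at 892 and 920 at 24 h (12 h against 0 h log2 difference 0.85, SE 0.06, limma adjusted p 0.000964). Both treated groups lay above 0 h. The cell death genes Bbc3 (PUMA) and Pmaip1 (NOXA) rose by 0.55 and 0.50 on the log2 scale, the death receptor Tnfrsf10b by 0.47 and the membrane protein gene Perp by 0.98. Mdm2, which marks p53 for destruction, went from 2406 and 2532 to 2817 and 2963 and Ccng1 from 6554 and 6450 to 7574 and 7503. Cdkn1a, the p53 target that encodes the cell cycle inhibitor p21, fell: it had 4161 and 3967 at 0 h, 3316 and 3282 at 12 h and 3213 and 3395 at 24 h (log2 difference -0.30, SE 0.04, limma adjusted p 0.00818). Trp53cor1, a noncoding RNA gene next to Cdkn1a on chromosome 17, fell too, from 122 and 158 to 50.1 and 60.0. It overlaps exons of another transcript on the opposite strand, and strand use in counting is not given, so it is uncertain. At 24 h against 0 h 12 p53 targets were called higher and 2 lower, beside 6.54% and 7.16% over all genes. In CTCF AID cells 2 were called higher and 5 lower, beside 9.39% and 8.40%. The 14 calls became 4 to 6 when a 0 h or 12 h library was left out, and 1 without the mean trend.

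Some genes of G2/M and mitosis rose, by small amounts. Of 46 tested, 15 rose (32.6%, against 6.66% of all genes), 2 fell (4.35%, against 6.35%) and 29 were not called, with a median log2 difference of 0.10. All 46 had a mean of at least 100. In the highest quintile of mean count 17.4% of all genes were called higher and 11.8% lower. Cdc20, which activates the anaphase-promoting complex, went from 4022 and 4037 to 5035 and 5178 and was at 3829 and 3815 at 24 h (12 h against 0 h log2 difference 0.34, SE 0.03, limma adjusted p 0.00194). Bub3 and Bub1b, of the spindle checkpoint, rose by 0.32 and 0.25, and Plk1 and Aurka by 0.18 and 0.22. The cyclin genes Ccnb1 and Ccna2 had log2 differences of 0.01 and 0.08 without a call. Of 38 genes of G1/S and DNA replication, 8 rose (21.1%) and 0 fell at 12 h. At an unadjusted limma p under 0.05, 16 were higher and 4 lower. The rises included Rpa2 by 0.39 and the helicase subunits Mcm2, Mcm4, Mcm5 and Mcm6 by 0.13 to 0.15. At 24 h against 0 h 0 of the 38 were called higher and 23 lower, beside 6.54% and 7.16% over all genes. Brca2, a repair gene picked after its value was seen, had 4673 and 4401 at 0 h and 2998 and 2719 at 12 h. The G2/M calls fell to 3 to 4 without a 0 h or 12 h library, and to 0 without the mean trend.

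The other large falls were in genes of varied roles, several of them developmental. Cdx1 (chromosome 18, 61018862 to 61036199, minus strand), a caudal homeobox factor and Wnt target, had 381 and 414 normalised counts at 0 h, 159 and 122 at 12 h and 124 and 150 at 24 h (12 h against 0 h log2 difference -1.50, SE 0.17, limma adjusted p 0.00404). Both treated groups lay below 0 h. Igfbp4, which binds insulin-like growth factors, went from 273 and 291 to 101 and 117, and to 111 and 84.2 at 24 h. Tlx2, a homeobox gene, went from 89.9 and 120 to 45.5 and 37.0. Lrrc15, a leucine-rich repeat membrane protein gene, went from 167 and 161 to 61.9 and 65.6 and was at 100 and 106 at 24 h. Sema6c, a semaphorin, Dpysl5, a gene of neuronal outgrowth, and Atxn1l, a partner of the repressor CIC, had log2 differences of -1.36, -1.32 and -1.50 and fell in both 12 h libraries. Lefty2, a Nodal antagonist, went from 1716 and 1829 to 846 and 905 and was at 1720 and 1793 at 24 h (12 h against 0 h log2 difference -1.02, SE 0.06, limma adjusted p 0.000427), and its relative Lefty1 had a log2 difference of -0.93 that was not called (limma adjusted p 0.0607). Elf3, an epithelial ETS factor picked after its values were seen, went from 1500 and 1477 to 735 and 690, and to 524 and 527 at 24 h.

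Among 18 tested Wnt pathway targets 4 fell (22.2%, against 6.35% of all genes) and 0 rose (1 at an unadjusted limma p under 0.05). The median log2 difference was 0.02, and its sign depended on the filter and on single libraries. It was -0.09 over 20 genes with no filter and -0.20 over the 10 genes with a mean of at least 100. Leaving out replicate 1 of 0 h gave -0.17, and leaving out replicate 2 of 12 h gave -0.15. Without replicate 2 of 0 h or replicate 1 of 12 h it stayed at 0.02. The 4 were Cdx1, Sp5, Axin2 and Nr5a2. Axin2, the feedback inhibitor of the pathway, had 541 and 545 normalised counts at 0 h and 343 and 380 at 12 h (log2 difference -0.59, SE 0.10, limma adjusted p 0.0142). Sp5 went from 125 and 150 to 84.3 and 61.5. Lef1 and Tcf7 had log2 differences of 0.09 and 0.07, and Dkk1 and Nkd1 of 1.06 and 0.69, none of them called. The culture medium activates this pathway in all groups through GSK3 inhibition. In CTCF AID cells Axin2 and Sp5 were called higher (log2 differences 1.03 and 1.66) and Cdx1 lower (-1.54). The 4 calls became 1 to 2 without a 0 h or 12 h library, 2 when the 24 h libraries were left out of the fit or a replicate block was added, and 0 without the mean trend.

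Other named rises had varied roles. Eri3, an exonuclease gene, had 400 and 454 normalised counts at 0 h, 1038 and 1590 at 12 h and 460 and 508 at 24 h (12 h against 0 h log2 difference 1.59, SE 0.19, limma adjusted p 0.00418). Dusp4, a phosphatase that switches off MAP kinases, went from 48.1 and 39.3 to 114 and 115 and stayed at 110 and 122. Ddit4l, an inhibitor of mTOR signalling also listed among p53 targets, went from 83.6 and 51.2 to 209 and 212. Lmx1b, a LIM homeobox gene, Gpatch11 and the transferrin gene Trf rose by 1.48, 1.40 and 1.49. Trf shares 53.2% of its stretches with the overlapping gene model Gm20425 and is uncertain. Txnip, an inhibitor of thioredoxin and glucose uptake, went from 7161 and 7332 to 11683 and 11676 and on to 16413 and 16268 at 24 h. It shares 12.1% of its stretches with Gm15441, which overlaps it on the opposite strand, and strand use in counting is not given. Sgk1, a serum and glucocorticoid regulated kinase, and Slc16a1, the lactate transporter MCT1, rose by 0.56 and 0.50. Of the 28 named genes other than Rad21, 18 kept their call when any 0 h or 12 h library was left out. Ddit4l, Trf, Lmx1b, Gpatch11, Atxn1l, Zfp799, Sema6c, Trp53cor1, Dpysl5 and Tlx2 did not, with limma adjusted p between 0.0521 and 0.168 where the call was lost, and without the mean trend 14 of the 28 were called.

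The unnamed processed pseudogene Gm13841, picked after its values were seen, was listed at 0 in both 0 h libraries and at 677 and 342 at 12 h. All of its 100-base stretches occur in other genes, 28 in number, so its value depends on how shared reads were assigned.

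Pluripotency genes were called in both directions. Pou5f1 (OCT4) had 16638 and 16340 normalised counts at 0 h and 16717 and 16493 at 12 h, and the groups overlapped. Nanog and Sox2 fell by 0.10 and 0.22 on the log2 scale. Of 19 naive pluripotency factors 4 rose (21.1%, against 6.66% of all genes) and 8 fell (42.1%, against 6.35%): Sp5, Nr0b1, Tet2, Klf4 and Klf2 fell by 0.91, 0.51, 0.38, 0.28 and 0.23, and Tfcp2l1, Stat3 and Socs3 rose by 0.08, 0.22 and 0.37. Of 14 core factors 3 rose (21.4%) and 4 fell (28.6%). Their log2 differences ran from 0.53 in Utf1, which rose, to -0.80 in Lin28a, which was not called. A mean of at least 100 was reached by 17 of the 19 naive and 13 of the 14 core factors. In the highest quintile of mean count 17.4% of all genes were called higher and 11.8% lower. The shares of naive and core factors that rose lie near that 17.4%. All 11 tested genes of the primitive endoderm list had values above 0, and 3 rose (27.3%): Lamb1 by 0.69, Col4a1 by 1.28 and Sparc by 0.18, all of them genes of the extracellular matrix. The endoderm factors Gata4, Gata6 and Sox17 had log2 differences of 0.52, 0.85 and 1.04 and were not called. The summed endoderm markers given above were Sox17, Gata6, Gata4 and Dab2, all members of this list, so their rise is not a separate observation. Whether the share of endoderm cells changed was not tested. Among 8 genes of the 2-cell-like state 0 were called by limma (1 higher and 0 lower at an unadjusted p under 0.05), with log2 differences from 0.05 to 1.63. All 8 lay in the lowest quintile of mean count, where 0.946% of all genes were called higher and 1.49% lower. The 0 calls are therefore no result about these 8 genes.

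Genes of hypoxia and glycolysis were called in both directions at 12 h, and genes of sterol synthesis only higher. Of 34 genes of hypoxia and glycolysis, 13 rose (38.2%, against 6.66% of all genes) and 5 fell (14.7%, against 6.35%). A mean of at least 100 was reached by 31 of them. In the highest quintile of mean count 17.4% of all genes were called higher and 11.8% lower, and the share that fell lies near that 11.8%. The risen ones were mostly glycolytic enzymes, with Pfkl at 0.40, Eno1 at 0.25 and Pkm at 0.23 on the log2 scale, and the regulator Pfkfb3 at 0.52. Hypoxia genes were among those that fell, with Vegfa at -0.67 and Egln3 at -0.59, as was the glucose transporter Slc2a1, at -0.21. At 24 h against 0 h 3 of the 34 were called higher and 16 lower, beside 6.54% and 7.16% over all genes. Of 28 genes of sterol synthesis, 27 of them with a mean of at least 100, 10 rose (35.7%), with Dhcr7 at 0.49 and Cyp51 at 0.40. At 12 h 0 of them fell (also 0 at an unadjusted limma p under 0.05). At 24 h 1 was called higher and 10 lower, beside 6.54% and 7.16% over all genes. Of 12 tubulin genes 6 rose and 2 fell at 12 h, and 0 were called higher and 9 lower at 24 h, Tubb4b going from 6999 and 7077 to 9372 and 9080 and then to 5782 and 5744. Of 31 genes of the integrated stress response, 29 of them with a mean of at least 100, 5 rose and 5 fell at 12 h (16.1% each). These shares lie near the 17.4% called higher and 11.8% called lower in the highest quintile of mean count. At 24 h 17 were called higher and 1 lower, beside 6.54% and 7.16% over all genes. The 12 h and 24 h comparisons share the 0 h libraries.

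Chromatin genes were called in both directions. Of 29 genes of Polycomb and DNA methylation 6 rose (20.7%, against 6.66% of all genes) and 4 fell (13.8%, against 6.35%). All 29 had a mean of at least 100. Their shares lie near the 17.4% called higher and 11.8% called lower in the highest quintile of mean count. The dioxygenase Tet1 went from 5748 and 5641 normalised counts to 8356 and 7701 (log2 difference 0.49, SE 0.06, limma adjusted p 0.0046), while its relative Tet2 fell by 0.38 and the Polycomb subunits Suz12 and Mtf2 by 0.19 and 0.34. Dnmt3l and Dnmt1 rose by 0.68 and 0.21. Of 29 imprinted genes 5 rose and 5 fell (17.2% each). Mest, expressed from the paternal copy, went from 1282 and 1284 to 2340 and 2385 (log2 difference 0.88, SE 0.05, limma adjusted p 0.000291). Plagl1, Usp29, Peg10, Rian and Meg3 fell by 0.82, 0.96, 0.62, 0.33 and 0.33. Hox genes and clustered protocadherins, whose clusters are known for regulation through loops, had 0 of 22 and 0 of 14 limma calls. At an unadjusted p under 0.05, 4 Hox genes were higher and 1 lower, and 0 protocadherins were higher and 2 lower. Only 3 of the Hox genes and 2 of the protocadherins had a mean of at least 100, and in the lowest quintile of mean count, which held 14 and 11 of them, 0.946% of all genes were called higher and 1.49% lower. The 0 calls are therefore no result about these genes. Among cohesin subunits Smc1a fell by 0.19 and Stag1 rose by 0.27, and Ctcf rose by 0.15 (limma adjusted p 0.047).

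**Figure D4:**
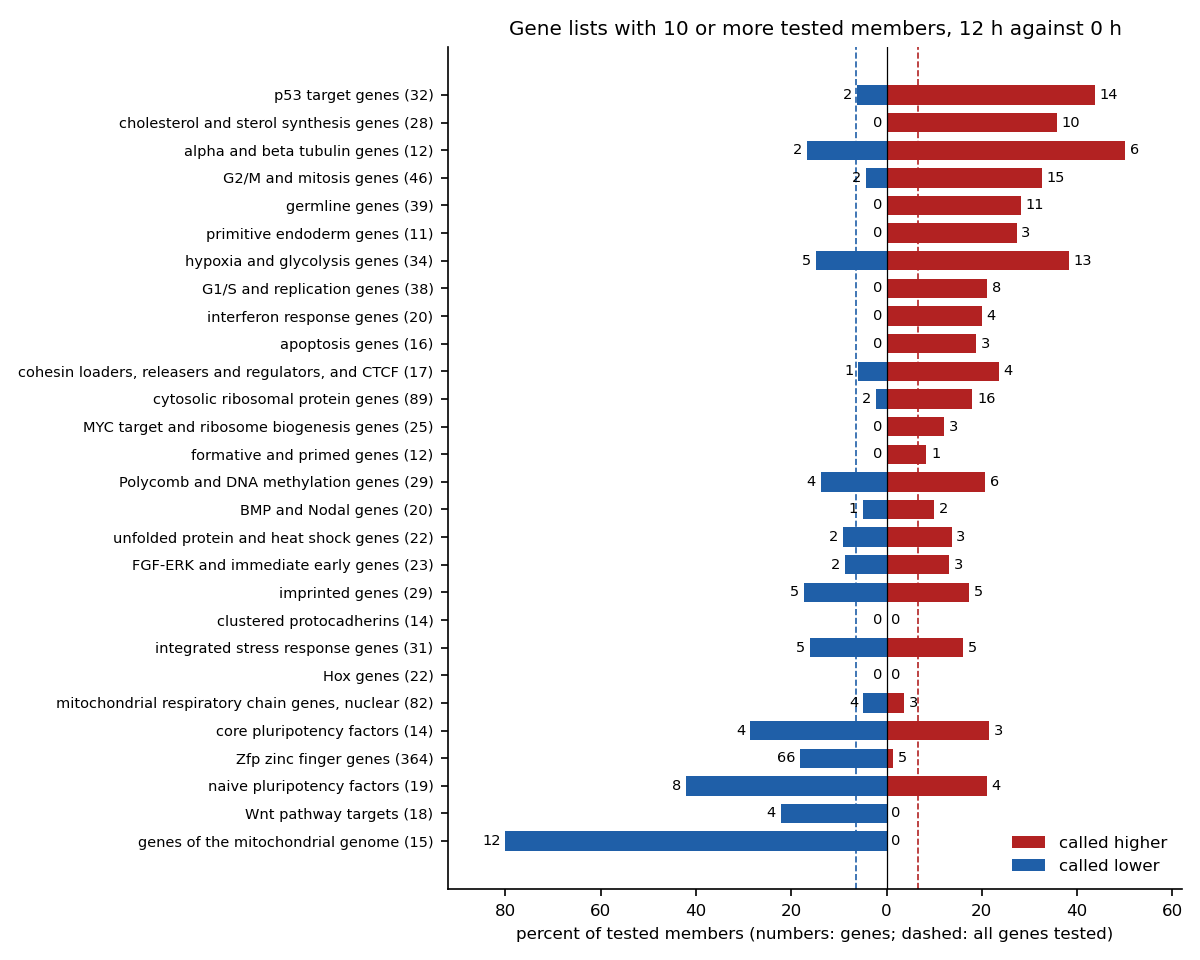
Percent of tested members called higher (red, to the right) or lower (blue, to the left) at 12 h against 0 h in each gene list with 10 or more tested members, with the number tested in brackets and the number called beside each bar. Dashed lines give the share over all genes tested, 6.66% higher and 6.35% lower. Lists are ordered by percent higher minus percent lower, from p53 targets at the top (14 higher and 2 lower of 32) to the mitochondrial genome at the bottom (12 lower of 15).

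CTCF degradation was set beside RAD21 degradation because CTCF anchors many cohesin loops. By the treatment protocol the agent and dose here were 1 uM 5-Ph-IAA, while CTCF AID cells received 500 uM IAA. The tables were normalised separately as well, so no difference between the lines was tested. The 143 genes with a called 2-fold change at 12 h included 126 that were tested in CTCF AID cells, and 49.2% of them had the same sign. There 12 were called in the same and 14 in the opposite direction. Of 1764 RAD21 calls tested in both tables, 286 were called in the same direction in CTCF AID cells and 219 in the opposite. These were 16.2% and 12.4% of the RAD21 calls, and 12.0% and 9.21% of the 2379 CTCF calls. Among RAD21 rises 166 were called the same and 98 opposite, and among falls 120 and 121. The sign was the same for 51.0% of the 1764. In CTCF AID cells 9.39% of all genes were called higher and 8.40% lower. Cdx1, Tlx2 and Elf3 fell in both lines, with CTCF AID log2 differences of -1.54, -1.35 and -1.46. Pknox2, a homeobox gene picked after its values were seen, fell by 1.24 here and by 1.22 there. Lefty2 rose in CTCF AID cells (log2 difference 0.90, limma adjusted p 0.000414).

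**Figure D5:**
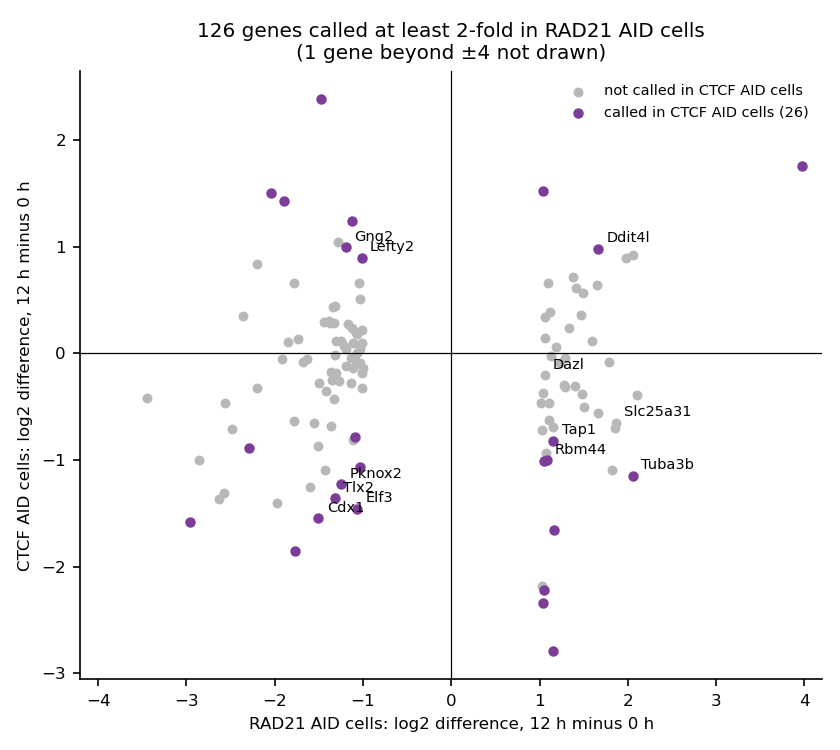
Log2 difference between 12 h and 0 h in CTCF AID cells (vertical axis) against that in RAD21 AID cells (horizontal axis), 1 point per gene with a called 2-fold change in RAD21 AID cells and tested in both tables (126 genes, 1 of them beyond the axis). Purple points are the 26 genes also called in CTCF AID cells. They fall in all 4 quadrants, with Cdx1, Tlx2 and Elf3 at lower left, Lefty2 at upper left and Tuba3b at lower right.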

How the data were processed

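The deposited tables hold normalised counts, a signal per gene that is never negative, with 1 column per library, per the file headers. Trim Galore, Bowtie2, STAR, RSEM, DESeq2 and mm10 are named in the submitters' processing notes, with no versions, roles or order; strand use is not given in the sources used here. Steps between low values differed from gene to gene, so whole reads were not recovered, the depth in reads is unknown and no count test was run. The filter kept genes whose mean over the table's 6 libraries reached 10. Their log2(value + 1) entered a linear model in limma (version 3.58.1, under R 4.3.3) that held all 3 time points, with eBayes moderation along a mean trend, and a call needed an adjusted p (Benjamini-Hochberg, over all genes tested) under 0.05. A log2 difference understates the change of low genes. Exact permutation over 2 libraries a group has a smallest two-sided p of 0.333, so single values rest on the fit across all genes. The code was tested on simulated data.

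Genes were named by size (10 rises, 10 falls; called, libraries not overlapping, higher group's mean 100 or more, no provisional symbol); by count, the 4 rises and 4 falls of highest count with a log2 size of at least 0.5, besides Rad21 and members of the gene lists. Members and lists were chosen with earlier results of these data known. Identifiers were joined to GENCODE M21 on GRCm38 (99.9% matched). The CTCF AID table ends in a broken line, and genes after it were not analysed there. Alternatives covered pseudocounts, filters, scaling, the fit, thresholds and leaving out each library. Some results of the apoptosis list are not reported here; 0 columns were unmapped.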

Additional observations from a re-analysis of the deposited data

Results flagged for a closer look

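The effect at 24 h differed from that at 12 h for 18 of the 29 genes named by size, count or as the target, in limma's test of 24 h against 12 h at an adjusted p under 0.05. For 17 of them the 24 h level was closer to 0 h than the 12 h level. These genes were chosen for their 12 h values, and the 12 h libraries enter both comparisons. Among genes that rose at 12 h, the log2 differences of 24 h against 12 h were, in brackets, Tuba3b (-2.20), Slc25a31 (-1.70), Eri3 (-1.41), Mael (-1.04), Gpatch11 (-0.999), Tex19.2 (-0.81), Sgk1 (-0.29), Slc16a1 (-0.26), Dazl (-1.10). Txnip rose further, by 0.48. Among genes that fell at 12 h, the log2 differences of 24 h against 12 h were, in brackets, Atxn1l (1.33), Zfp799 (1.18), Lrrc15 (0.68), Dpysl5 (1.34), mt-Co1 (0.64), mt-Nd1 (0.30), mt-Cytb (0.60), mt-Nd4 (0.68).

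In 8 genes of the naming rule or of the lists other than the apoptosis list the 12 h change was called in both degron lines, in opposite directions, with a log2 size of at least 0.5 in each. The difference between the lines was not tested, and the agents and doses differed. The log2 differences in CTCF AID cells were, in brackets, Tuba3b (-1.15), Piwil2 (-0.86), Ndn (-1.09), Tap1 (-0.82), all of which rose in RAD21 AID cells, and Sp5 (1.66), Axin2 (1.03), Lefty2 (0.90), Zfp59 (0.62), all of which fell there.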

How the results depend on the processing

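No named gene changed direction under the alternatives run, while the number of calls varied. Of 1787 calls at 12 h, pseudocounts, filters on low values, scaling and robust fitting kept 1593 to 1784 with the same direction among genes tested again, and quantile normalisation changed the sign of 3. Without the mean trend 158 genes were called at 12 h (63 higher, 95 lower), 216 at 24 h, 463 between 12 h and 24 h and 1428 in CTCF AID cells, with 4 germline, 19 Zfp, 7 mitochondrial, 1 p53, 0 G2/M and 0 Wnt genes in the directions reported. Of the 1787 calls, 146 were among these 158. At an adjusted p under 0.05 and at least 2-fold the counts were 143 (58 higher, 85 lower), 146, 166 and 609, with 4 germline, 9 Zfp, 1 mitochondrial, 1 p53, 0 G2/M and 1 Wnt genes. At an adjusted p under 0.01 they were 474 (242 higher, 232 lower), 577, 765 and 981, with 7 germline, 28 Zfp, 5 p53, 2 G2/M and 1 Wnt genes.

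Leaving out each library in turn, with a lone library assumed to vary like the other groups, gave 555 to 1479 calls at 12 h (274 to 749 higher, 281 to 730 lower), 703 to 1362 at 24 h, 891 to 1923 between 12 h and 24 h and 1005 to 2608 in CTCF AID cells. It gave 6 to 10 germline, 26 to 52 Zfp, 10 to 11 mitochondrial, 4 to 13 p53, 3 to 11 G2/M and 1 to 3 Wnt genes. Differences of at least 2-fold, untested, numbered 562, and 269 with a pseudocount of 8, 83 at a mean of at least 100, and 555 to 720 without a library. The cause of these shifts was not tested. With the 24 h libraries out of the fit 1469 genes were called and 2 Wnt genes. The GC correction, added after seeing the data, called 1689 and kept 1489 of the 1787, with 7 changes of sign.

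Replicate numbers did not pair the libraries: deviations of same-numbered libraries correlated at -0.03, 0.01 and -0.01. The replicate block called 1374 genes at 12 h (1304 of the 1787), with 2 Wnt genes, and Ddit4l lost its call (limma adjusted p 0.0558). Of 36 list medians, 426 values under alternatives moved by less than the spread between replicates and 76 by more. With 2 libraries a group, precision is limited most for genes of low count: 0.946% of genes in the lowest quintile of mean count were called higher, against 17.4% in the highest.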
